A study of Arabidopsis thaliana with 6 samples.

Results

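The 10 genes described here cover the path of sucrose in *Arabidopsis thaliana* from its synthesis through its cleavage to its export. They were chosen by name and locus, with earlier results of these data known. They are the 4 sucrose phosphate synthase genes *SPS4F* (AT4G10120), *SPS1F* (AT5G20280), *SPS2F* (AT5G11110) and *SPS3F* (AT1G04920), 1 sucrose phosphate phosphatase gene (AT2G35840), the sucrose synthase genes *SUS1* (AT5G20830) and *SUS3* (AT4G02280), the sucrose/proton symporter gene *SUC2* (AT1G22710), and the sucrose efflux carrier genes *SWEET11* (AT3G48740) and *SWEET12* (AT5G23660). All 10 were among the 19616 genes of the deposited table, and all 10 passed the filter on low counts that left 19615 genes for testing. The phosphatase was listed among the chosen genes as *SPP2*, but the deposited table and RefSeq give that symbol to AT3G52340, so it is called by its locus here, and *SPP2* stands for AT3G52340.

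RNA-Seq was carried out on whole wild-type Col-0 seedlings, ground as a mixture of shoot and root, to ask how the transcriptome responds to the plant growth-promoting bacterium *Priestia megaterium* YC4-R4. The 3 treated libraries came from seedlings inoculated in soil with the bacterium suspended in a NaCl carrier. The 3 mock libraries came from seedlings given the same amount of carrier without bacteria. All 6 were taken 7 days after treatment, 13 days after germination, and the study calls the replicates of a group biological.

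In leaves, sucrose phosphate synthase joins UDP-glucose and fructose 6-phosphate into sucrose 6-phosphate, and sucrose phosphate phosphatase removes the phosphate to release sucrose. SWEET carriers let sucrose out of phloem parenchyma cells into the cell wall space, and the symporter SUC2 takes it up into companion cells for transport to roots and other sinks. There, sucrose synthase cleaves it to UDP-glucose and fructose, and invertases cleave it to glucose and fructose.

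Total counts were 10804936 to 20040520 in the mock libraries and 15292377 to 21904205 in the treated libraries. TMM factors, which correct the library totals for differences in composition, lay between 0.971 and 1.02, and the biological coefficient of variation over all genes was 0.0792. All values below are TMM-normalized CPM (counts scaled to a common library total) or the stated quantity derived from them. A gene was called higher or lower at an adjusted p of at most 0.05 in edgeR's quasi-likelihood test, with Benjamini-Hochberg adjustment over all genes, and a fold change of at least 1.5. By this rule, 340 of 19615 genes (1.73%) were higher and 302 (1.54%) lower in the treated seedlings. By the adjusted p alone, the shares were 5.10% and 4.52%. Because whole seedlings were ground, fewer cells of a type and less RNA per cell cannot be told apart. Libraries mock 1 and treated 2 deviated together from their group means (r = 0.463 across genes, which are not independent), so results were also computed without both.

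Of the 10 sucrose genes, 2 were called higher in the treated seedlings, beside 1.73% of all genes, and none was called lower, beside 1.54%. *SPS4F* rose 2.04-fold and *SUS3*, at a far lower level, rose 1.53-fold. The *SUS3* call was lost when mock 1, mock 3 or treated 1 was left out. Another gene, AT2G35840, passed the adjusted p at 1.29-fold, under the fold limit. The other 7, including both export steps, did not pass the test. The treated libraries lay wholly above the mock libraries for 4 of the 10 (*SPS4F*, *SPS1F*, AT2G35840 and *SUS3*), compared with 14.5% of all genes, and wholly below for 0, compared with 13.8%. The median log2 fold change was 0.08 over the 10 genes and -0.0049 over all genes. Because the 10 genes were chosen with earlier results of these data known, these counts only describe them. No test of the list was run.

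**Figure D1:**
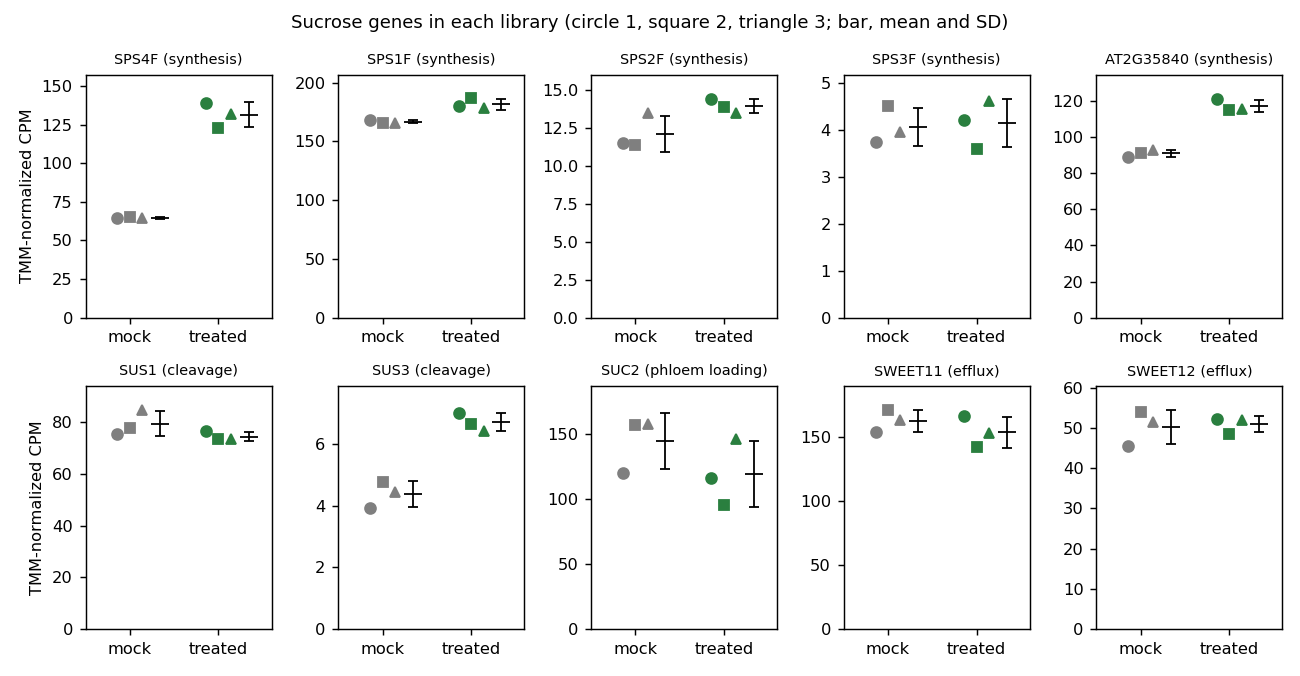
TMM-normalized CPM of the 10 sucrose genes in each library, mock in gray and treated in green, with the mean and SD (n = 3) beside each group. The treated libraries stand clear of the mock libraries for *SPS4F*, AT2G35840 and *SUS3*, and the groups overlap for *SUC2*, *SWEET11* and *SWEET12*.

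*SPS4F* encodes one of the sucrose phosphate synthases, the enzyme family that makes sucrose 6-phosphate. Its TAIR10.1 position is chromosome 4, 6313914 to 6320094 (plus strand), with 5 annotated transcripts of 11 to 15 exons. Its level was 64.4, 65.4 and 64.2 CPM in mock libraries 1, 2 and 3, and 139, 123 and 132 CPM in treated libraries 1, 2 and 3. Every treated library was far above every mock library, and the mock libraries were nearly equal (CV 0.999%, against 6.26% in the treated libraries). The log2 fold change was 1.03 (SE 0.07, 95% interval 0.87 to 1.18), with an adjusted p of 7.99e-06 in edgeR's quasi-likelihood test. Only 0.57% of the genes tested had a larger rise. It stayed between 0.98 and 1.07 in all 16 alternatives, which included other normalizations, filters and tests and each library left out. The study picked *SPS4F* from these libraries for a check by quantitative PCR, so its rise here is not independent evidence of that direction. The last 167 bases of the gene overlap AT4G10130 on the opposite strand, and whether the counting used strand is not given. AT4G10130 itself had 5.43 to 8.11 CPM over the 6 libraries, with a log2 fold change of 0.02.

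*SPS1F* encodes another sucrose phosphate synthase, at chromosome 5, 6844712 to 6850237 (minus strand), with 13 exons. It had 168, 166 and 166 CPM in the mock libraries and 180, 187 and 178 CPM in the treated libraries. The treated libraries were all slightly above the mock libraries. The log2 fold change was 0.13 (SE 0.06, 95% interval -0.01 to 0.27), and the adjusted p of 0.27 in edgeR's quasi-likelihood test did not pass.

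*SPS2F* (chromosome 5, 3536189 to 3541149, plus strand) had 11.5, 11.4 and 13.5 CPM in the mock libraries and 14.4, 13.9 and 13.5 CPM in the treated libraries. The groups overlapped slightly, since mock 3 was just above treated 3 before rounding to 13.5 CPM. Its log2 fold change was 0.18 (95% interval -0.04 to 0.40, edgeR adjusted p = 0.328). *SPS3F* (chromosome 1, 1391434 to 1395953, minus strand) was the lowest of the family at 3.74 to 4.52 CPM in mock and 3.60 to 4.62 CPM in treated libraries. These ranges overlapped almost wholly, and the log2 fold change was 0.04 (95% interval -0.31 to 0.39, edgeR adjusted p = 0.923).

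The 4 synthase genes can be set beside each other only per length of their exons. Per kilobase, *SPS1F* had the highest level of the family in every library, with 45.6 ± 0.243 CPM (SD, n = 3) in mock and 49.8 ± 1.26 in treated seedlings. *SPS4F* came next, at 13.6 ± 0.136 and 27.7 ± 1.74. The summed level of the 4 genes was 63.6, 63.6 and 63.8 CPM per kilobase in the mock libraries and 83.8, 81.9 and 81.6 in the treated libraries. The sum was thus higher in every treated library, with little spread within either group. The share of *SPS4F* in this sum was 21.3, 21.7 and 21.2% in mock and 35, 31.6 and 34.1% in treated libraries. That of *SPS1F* went from 71.6 ± 0.448% to 60.4 ± 1.89% (n = 3), without overlap between the groups.

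**Figure D2:**
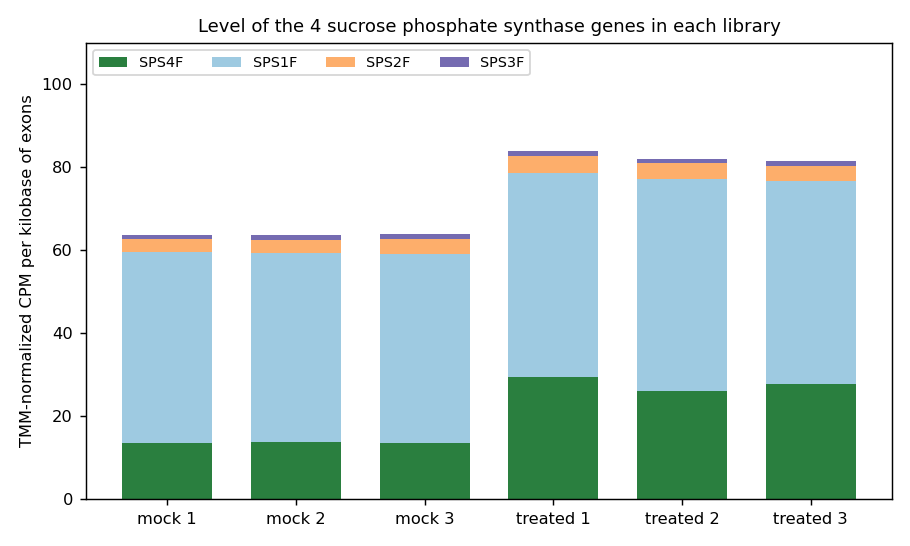
Stacked TMM-normalized CPM per kilobase of exons of *SPS4F*, *SPS1F*, *SPS2F* and *SPS3F* in each of the 6 libraries. The treated stacks reach 81.6 to 83.8 against 63.6 to 63.8 in mock, and most of the difference is the *SPS4F* segment at the base.

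The ratio of counts of *SPS4F* to *SPS1F* within a library does not depend on the normalization between libraries. Its log2 value was -1.38, -1.34 and -1.37 in mock and -0.37, -0.60 and -0.43 in treated libraries. The groups did not overlap, and the difference of the means was 0.90. The exact two-sided permutation test gave p = 0.1, the smallest that 3 against 3 libraries allow, so this design could not reach 0.05. The coding sequences of *SPS4F* and *SPS1F*, of 3153 and 3132 bases, were 65.3% identical over 2985 aligned bases. Their longest common run, shown for how little of the pair a read could fail to tell apart, had 18 bases:
*SPS4F* and *SPS1F*: gttttcatcaatccagct
The closest pair of the family was *SPS1F* and *SPS2F*, at 70.5% identity and a longest run of 23 bases.

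The sequences just before the starts of *SPS4F* and *SPS1F* are printed because the ratio of this pair separated the groups. Each is the 250 bases before the annotated start in TAIR10.1, 5′ to 3′ on the strand of the gene, chr4:6313664-6313913 (plus) and chr5:6850238-6850487 (minus). Capitals mark matches to any of 3 motifs searched on both strands, the evening element AAAATATCT, the G-box CACGTG and the sugar-response element TATCCA, which do not overlap here.
*SPS4F*: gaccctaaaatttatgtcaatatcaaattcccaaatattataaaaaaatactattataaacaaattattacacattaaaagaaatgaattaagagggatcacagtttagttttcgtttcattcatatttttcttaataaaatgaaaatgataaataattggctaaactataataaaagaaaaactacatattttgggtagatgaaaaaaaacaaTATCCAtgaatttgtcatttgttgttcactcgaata
*SPS1F*: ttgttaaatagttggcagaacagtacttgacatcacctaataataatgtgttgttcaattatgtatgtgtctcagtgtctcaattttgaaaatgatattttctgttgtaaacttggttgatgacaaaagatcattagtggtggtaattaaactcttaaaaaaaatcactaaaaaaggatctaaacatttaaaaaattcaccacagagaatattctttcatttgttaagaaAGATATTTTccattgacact
The *SPS4F* window holds 1 TATCCA, from 36 to 31 bases before the start, and no other match. The *SPS1F* window holds 1 evening element, read on the opposite strand, from 20 to 12 bases before the start. Of 27443 protein-coding genes, 13.64% hold TATCCA and 2.36% the evening element in a window of this length. Their GC content is 22.0% and 27.6%. A match describes the letters and says nothing about binding. Among the other 8 genes, *SUS1* also holds a TATCCA in this window, and *SPS3F* and *SUC2* each hold a G-box, which 6.49% of the windows do.

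AT2G35840 encodes a sucrose phosphate phosphatase, the enzyme of the last step of sucrose synthesis, and is found at chromosome 2, 15053483 to 15057426 (plus strand). It had 89.2, 91.3 and 93 CPM in the mock libraries and 121, 115 and 116 CPM in the treated libraries. The groups were well apart, and the spread within each was small. The log2 fold change was 0.36 (SE 0.06, 95% interval 0.22 to 0.50), a fold of 1.29, with an adjusted p of 0.0037 in edgeR's quasi-likelihood test. It passed the adjusted p in all 16 alternatives and never the fold limit. The gene AT2G35850, of 243 bases on the same strand, lies inside it and was not analysed here.

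*SUS3* encodes a sucrose synthase, which cleaves sucrose reversibly to UDP-glucose and fructose, and is found at chromosome 4, 994726 to 998991 (plus strand). Its level was 3.92, 4.77 and 4.45 CPM in the mock libraries and 7.03, 6.68 and 6.45 CPM in the treated libraries, from 43, 58 and 89 counts and 155, 104 and 130 counts. All treated libraries were above all mock libraries. The log2 fold change was 0.61 (SE 0.13, 95% interval 0.32 to 0.91), a fold of 1.53, with an adjusted p of 0.0134 in edgeR's quasi-likelihood test. This call sat just above the fold limit and was lost when 1 library was left out. Without mock 1 the log2 fold change was 0.55 (adjusted p = 0.0399), without mock 3 it was 0.63 (adjusted p = 0.064), and without treated 1 it was 0.58 (adjusted p = 0.0608), all by edgeR's quasi-likelihood test. Without mock 1 and treated 2 it was 0.56 (edgeR adjusted p = 0.0378), past the adjusted p but under the fold limit.

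*SUS1*, a sucrose synthase with a higher level, is found at chromosome 5, 7050217 to 7055398 (minus strand). It had 75.7, 77.8 and 85 CPM in the mock libraries and 76.5, 73.4 and 73.6 CPM in the treated libraries. The groups overlapped, and the log2 fold change was -0.10 (SE 0.07, 95% interval -0.25 to 0.05, edgeR adjusted p = 0.452). Per kilobase, *SUS3* made up 5.78, 6.78 and 5.84% of the summed *SUS1* and *SUS3* level in mock and 9.83, 9.74 and 9.42% in treated libraries. *SUS1* therefore remained the far larger of the pair in every library. The log2 ratio of counts of *SUS3* to *SUS1* went from -4.19 ± 0.14 to -3.47 ± 0.04 (SD, n = 3), without overlap, and the exact two-sided permutation p of the difference of 0.71 was 0.1, again the smallest possible.

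The windows before the starts of *SUS3* (chr4:994476-994725, plus) and *SUS1* (chr5:7055399-7055648, minus) are given in the same way, since this was the other pair whose ratio separated the groups.
*SUS3*: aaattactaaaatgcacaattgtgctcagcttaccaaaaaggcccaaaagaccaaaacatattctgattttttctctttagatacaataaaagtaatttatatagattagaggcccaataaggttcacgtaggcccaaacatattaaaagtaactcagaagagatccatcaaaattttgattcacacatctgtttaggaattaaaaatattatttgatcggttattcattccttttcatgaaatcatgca
*SUS1*: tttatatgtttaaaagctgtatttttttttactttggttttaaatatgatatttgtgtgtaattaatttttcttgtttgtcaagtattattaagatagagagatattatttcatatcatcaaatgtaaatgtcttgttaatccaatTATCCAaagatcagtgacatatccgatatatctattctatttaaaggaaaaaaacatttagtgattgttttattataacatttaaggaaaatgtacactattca
The *SUS3* window holds none of the 3 motifs, which says only that these letters are absent from it. The *SUS1* window holds 1 TATCCA, from 104 to 99 bases before the start. The coding sequences of *SUS1* and *SUS3* were 68.2% identical, with a longest common run of 21 bases. *SUS1* is closer to *SUS4* (AT3G43190), at 84.3% identity and a run of 38 bases, so reads in such a stretch may be shared between these genes.

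*SUC2* encodes the symporter that loads sucrose into the phloem, and is found at chromosome 1, 8030587 to 8033156 (minus strand). It had 120, 157 and 158 CPM in the mock libraries and 116, 95.6 and 146 CPM in the treated libraries. The groups overlapped, and the spread was the widest of the 10 genes, with a CV of 15% in mock and 21.3% in treated libraries. Its log2 fold change of -0.28 (SE 0.14, 95% interval -0.59 to 0.03) did not pass, with an adjusted p of 0.263 in edgeR's quasi-likelihood test. With single libraries left out, the value lay between -0.45 and -0.15, with an edgeR adjusted p of at least 0.0543. Mock 1 and treated 2 were the lowest of their groups, and without both the log2 fold change was -0.27 (edgeR adjusted p = 0.0928). The leaf gene *RBCS1A*, for the small subunit of Rubisco, was also lowest in its group in these libraries, at 8749 and 8769 CPM. So were *RBCS2B*, *LHCB2.2*, *GLDP1* and *RCA* among the 8 leaf markers, all named after their values were seen. The rest differed, with *CA1* and *LHCB1.3* lowest in treated 1 among the treated libraries, and *SBPASE* highest in mock 1 among the mock libraries. The part of the deviation shared by mock 1 and treated 2 in the *SUC2* value was not tested.

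*SWEET11* and *SWEET12* encode sucrose efflux carriers of the leaf phloem and lie on the minus strand, at 18052466 to 18054832 of chromosome 3 and 7971647 to 7973995 of chromosome 5. *SWEET11* had 154, 171 and 163 CPM in mock and 166, 142 and 153 CPM in treated libraries. *SWEET12* had 45.6, 53.9 and 51.4 CPM in mock and 52.2, 48.6 and 52 CPM in treated libraries. The groups overlapped for both genes. The log2 fold change was -0.08 for *SWEET11* (95% interval -0.25 to 0.09, edgeR adjusted p = 0.592) and 0.02 for *SWEET12* (95% interval -0.15 to 0.19, edgeR adjusted p = 0.929). These intervals leave room for a change of up to 0.25 on the log2 scale in *SWEET11*, well below that of *SPS4F*. The log2 ratio of *SWEET12* to *SWEET11* counts moved by 0.10, and the groups overlapped (exact two-sided permutation p = 0.3, n = 3 per group). These carriers were 82.6% identical in coding sequence, the closest pair within the 10 genes, and their longest common run had 29 bases:
*SWEET11* and *SWEET12*: gtcatatggctcctttatggtcttgctct

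**Figure D3:**
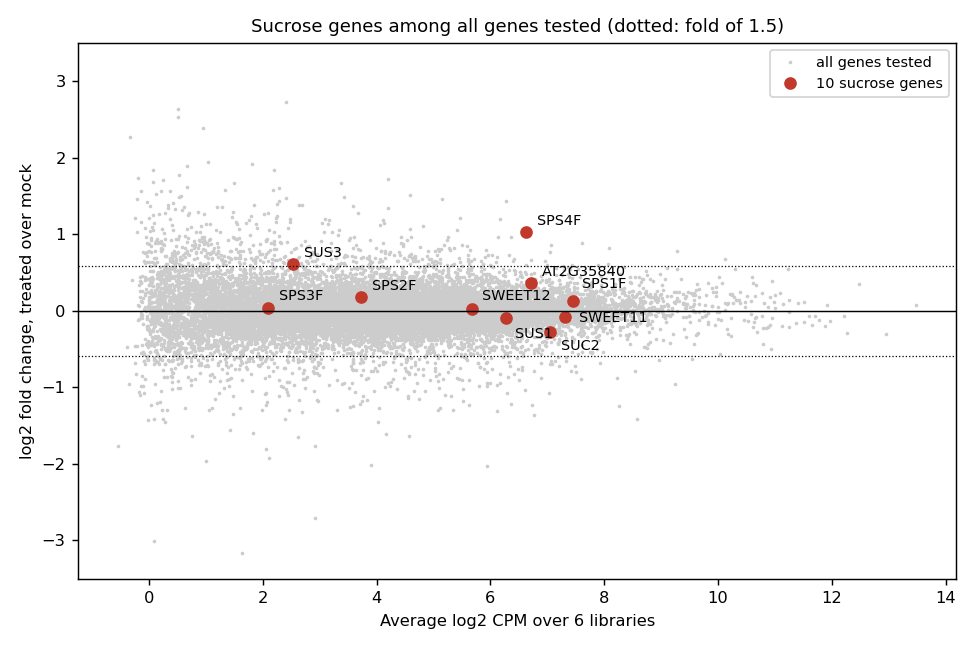
The log2 fold change, treated over mock, against the average log2 CPM for all genes tested (gray) and the 10 sucrose genes (red), with dotted lines at a fold of 1.5. *SPS4F* stands at 1.03 among genes of like level, *SUS3* sits just past the line at 0.61 among low genes, and the other 8 lie between the lines.

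Per kilobase of exons, the order of the mock levels was *SWEET11* (117 ± 6.12 CPM), *SUC2* (70.7 ± 10.6), *SPS1F* (45.6 ± 0.243), *SWEET12* (37.4 ± 3.17), AT2G35840 (31.9 ± 0.659), *SUS1* (21.3 ± 1.3), *SPS4F* (13.6 ± 0.136), *SPS2F* (3.35 ± 0.33), *SUS3* (1.39 ± 0.137) and *SPS3F* (1.12 ± 0.113), each with the SD over 3 libraries. Only the last pair met in range. In the treated seedlings *SPS4F* (27.7 ± 1.74) stood above *SUS1* (20 ± 0.467), and AT2G35840 (41 ± 1.03) above *SWEET12* (37.8 ± 1.49). Both pairs had the opposite order in mock. *SUC2* (58.2 ± 12.4) and *SPS1F* (49.8 ± 1.26) overlapped in range there. The exon length counts every annotated transcript, so a gene with several, such as *SPS4F*, may be understated.

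The other genes of sucrose metabolism and transport were taken as 7 lists of 77 genes, of which 57 were in the table and 20 were not analysed here. Of the 57, 1 was called higher, beside 1.73% of all genes, and 1 lower, beside 1.54%. By the adjusted p alone, 6 were higher and 3 lower, beside 5.10% and 4.52% of all genes. The median log2 fold change of the 57 was 0.05, beside -0.0049 over all genes.

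The enzymes that supply UDP-glucose and hexose phosphates, with the other phosphatases, had no called member among 11. In 7 of the 11 every treated library was above every mock library, beside 14.5% of all genes. *SPP2* (AT3G52340), a sucrose phosphate phosphatase 79.0% identical to AT2G35840 in coding sequence, had 38.4, 36.3 and 35.8 CPM in mock and 52.8, 49 and 48.2 CPM in treated libraries. The groups were well apart, with a log2 fold change of 0.45 (SE 0.07) and an edgeR adjusted p of 0.00205, under the fold limit. *UGP2*, a UDP-glucose pyrophosphorylase, named after its values were seen, was the other gene past the adjusted p (log2 fold change 0.47, edgeR adjusted p = 0.00237). The median of the list was 0.19, and it ranged from -0.10 to 0.49.

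Among the cleaving enzymes, none of the 4 other sucrose synthases was called, and all 4 had a negative log2 fold change. The nearest to the threshold was *SUS4*, with 12.2, 12.8 and 13.4 CPM in mock and 10.3, 11.3 and 9.33 CPM in treated libraries. Its treated libraries were all below, but the log2 fold change of -0.32 had an adjusted p of 0.087 in edgeR's quasi-likelihood test. The invertases and their inhibitors had no call among 14. *A/N-InvC*, an alkaline/neutral invertase, had 144, 143 and 142 CPM in mock and 113, 113 and 108 CPM in treated libraries, the lower level in every treated library (log2 fold change -0.36, SE 0.06, edgeR adjusted p = 0.00367). Past the adjusted p in the other direction were *VI2*, a vacuolar invertase (log2 fold change 0.32, edgeR adjusted p = 0.0401), and AT1G62660, a vacuolar glycosyl hydrolase of family 32 (0.29, 0.0373), both named after their values were seen. Invertase genes were thus found on both sides of 0, and the median of the list, inhibitors included, was 0.03.

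Among the transporters, *SUC7* (AT1G66570), a member of the sucrose symporter gene family with a very low level, was the 1 listed gene called higher. It had 0.912, 0.411 and 0.649 CPM in mock and 1.77, 1.86 and 1.89 CPM in treated libraries. All treated libraries were above. A gene was in the table if it reached 1 CPM in 2 libraries, which *SUC7* did only in treated libraries, so its place in the table itself favoured a higher call. It had a log2 fold change of 1.49 (SE 0.28) and an edgeR adjusted p of 0.00597. Its coding sequence is 93.8% identical to that of *SUC8*, with a shared run of 92 bases, and 93.7% to that of *SUC6*, so its few counts cannot be assigned to it with certainty. The other 4 symporter genes in the table were not called. *SWEET2*, a vacuolar SWEET carrier of roots, was the nearest of 7 other SWEET genes, at 21.3, 18.8 and 20.1 CPM in mock and 26.9, 28.3 and 23.2 CPM in treated libraries (log2 fold change 0.38, edgeR adjusted p = 0.0267, under the fold limit). With single libraries left out, its adjusted p by edgeR lay between 0.0145 and 0.114, and it no longer passed without mock 2, mock 3, treated 1 or treated 2.

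*STP1* (AT1G11260), a hexose/proton symporter that is known to be repressed by sugars, was the 1 listed gene called lower. It had 149, 198 and 188 CPM in mock and 79.7, 78.5 and 96.6 CPM in treated libraries. The groups were far apart, and the log2 fold change of -1.07 (SE 0.11) had an adjusted p of 0.00012 in edgeR's quasi-likelihood test. It was called in all 16 alternatives. *STP4*, named after its values were seen, also passed the adjusted p (log2 fold change -0.29, edgeR adjusted p = 0.034), and the median of the 8 hexose transporters was -0.14. The hexose kinases had no call among 8. *HXK2*, a hexokinase and the nearest of them, had a log2 fold change of 0.23 (edgeR adjusted p = 0.12).

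**Figure D4:**
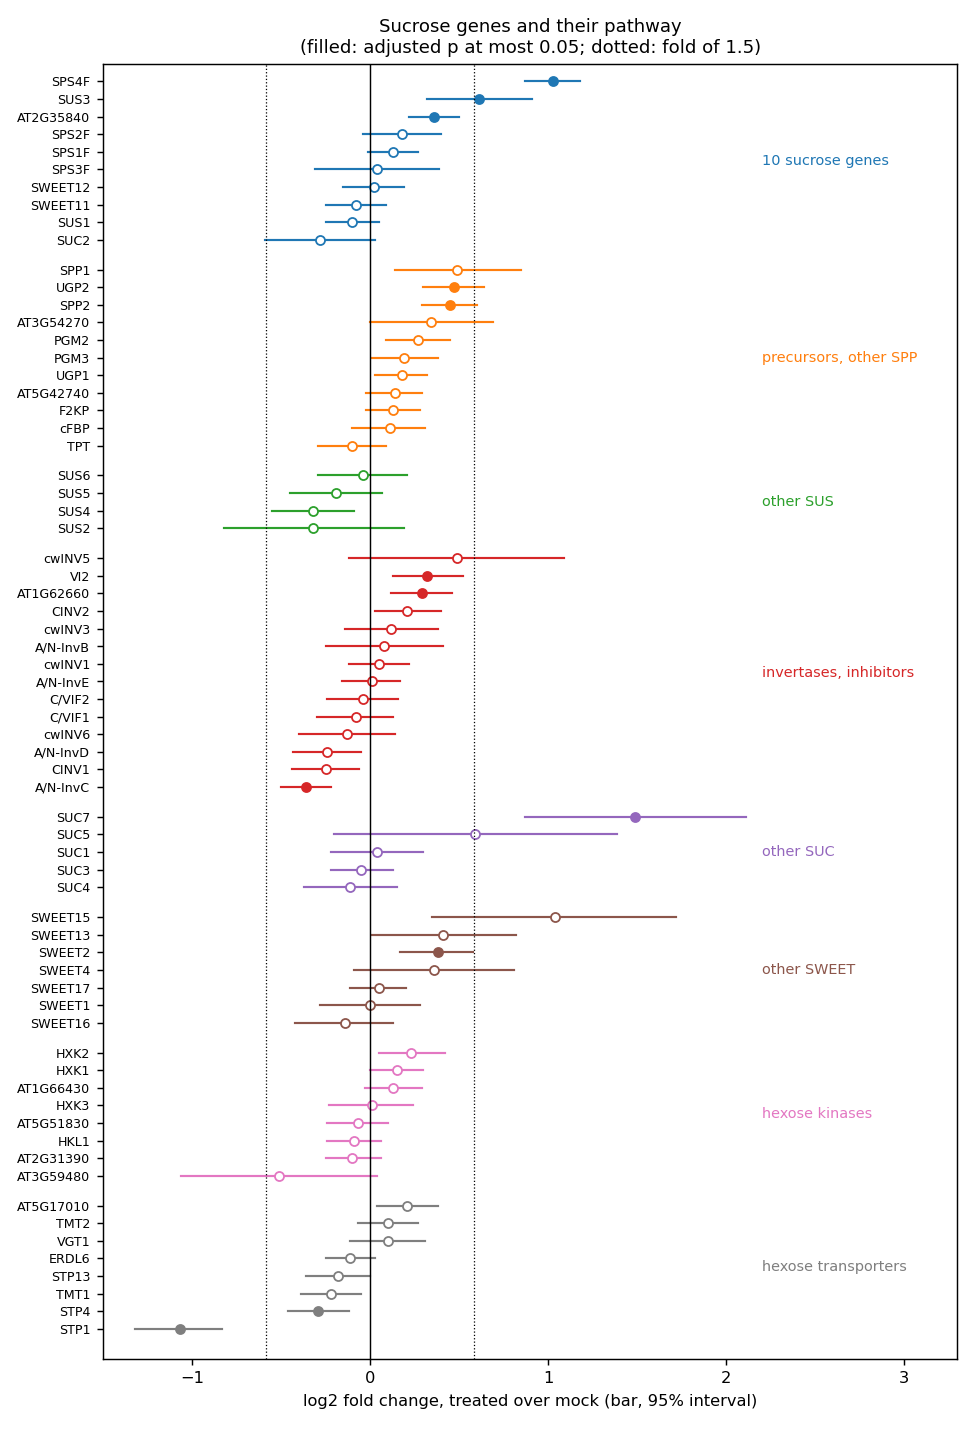
The log2 fold change, treated over mock, with its 95% interval for the 10 sucrose genes and the 57 listed genes of sucrose and hexose metabolism and transport, by list. Filled points passed an adjusted p of 0.05, and only *SPS4F*, *SUS3*, *SUC7* and *STP1* lie beyond the dotted lines at a fold of 1.5 as well.

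Genes that mark sugar shortage also differed between the groups. Of 7 such genes, 5 were called lower and 1 higher, beside 1.54% and 1.73% of all genes. Their summed level, mostly that of AT3G15450 and *DIN10*, was 1118 to 1143 CPM in mock and 464 to 494 CPM in treated libraries. *SEN1*, a gene induced in the dark, had 35.3, 39.5 and 35.8 CPM in mock and 11.5, 12.7 and 11.6 CPM in treated libraries (log2 fold change -1.63). *DIN10*, a raffinose synthase-like gene induced in the dark, had 427, 427 and 444 against 177, 182 and 187 CPM (-1.25). AT3G15450, an aluminium induced protein gene, had 551, 565 and 553 against 208, 200 and 219 CPM (-1.41). The edgeR adjusted p was at most 1.86e-06 for these 3 genes, and no treated library came near a mock library. The exception in direction was *DIN2*, a beta-glucosidase gene named after its values were seen, with a log2 fold change of 1.67 (edgeR adjusted p = 1.92e-05).

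Genes of the circadian clock also differed. The morning genes *LHY*, *CCA1* and *RVE1*, the 3 called among 10 listed, were higher, beside 1.73% of all genes. *LHY* had 83.5, 80.2 and 78.5 CPM in mock and 132, 131 and 119 CPM in treated libraries, with a log2 fold change of 0.66. *CCA1* and *RVE1* had log2 fold changes of 0.67 and 0.71, and the edgeR adjusted p was at most 0.000305 for all 3. By the adjusted p alone, 3 clock genes were lower, beside 4.52% of all genes. These were *PRR7*, *TOC1* and *LUX*, named after their values were seen. Sucrose phosphate synthase genes are known to vary over the day, and the hour of harvest is not given. The part of the sugar shortage and clock genes in the *SPS4F* value was not tested.

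**Figure D5:**
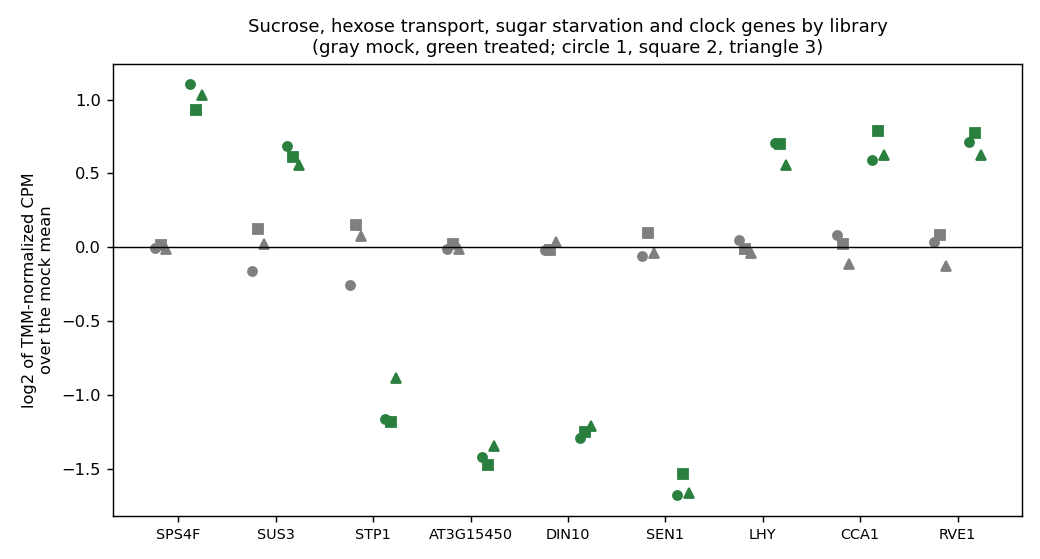
The log2 of the TMM-normalized CPM of each library over the mock mean, for *SPS4F*, *SUS3*, *STP1*, 3 genes of sugar shortage and 3 of the clock, mock in gray and treated in green. The treated libraries are above all mock libraries for *SPS4F*, *SUS3* and the 3 clock genes shown. They are below for *STP1* and the 3 sugar shortage genes shown. *DIN2*, which rose, and the clock genes that were lower by the adjusted p alone are not shown.

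Markers of the organs and tissues in the seedling were set beside these values. Of 9 phloem markers, 0 were called, 8 had a negative log2 fold change, and the median was -0.15. Their summed level was 731 to 765 CPM in mock and 673 to 703 CPM in treated libraries. Of the phloem genes among the 10, *SUC2* and *SWEET11* had negative values and *SWEET12* a positive one, and none passed the test. Of 8 leaf markers, 0 were called, 6 had a positive log2 fold change, and the median was 0.35. By the adjusted p alone, 3 were higher, beside 5.10% of all genes, and 0 lower. The summed level of the 8, mostly that of *RBCS1A* and *LHCB1.3*, was 26189 to 34864 CPM in mock and 28056 to 39774 CPM in treated libraries. Of 9 root markers, 0 were called, 5 had a negative log2 fold change, and the median was -0.01. By the adjusted p alone, 1 was higher, beside 5.10% of all genes. This was *SCR*, named after its values were seen (log2 fold change 0.31, edgeR adjusted p = 0.0364). The summed level of the 9, mostly that of *PYK10*, was 936 to 988 CPM in mock and 1069 to 1112 CPM in treated libraries. Leaf, phloem and root genes were thus all detected, as the label of whole plants says, and none of the 5 flower and seed markers was in the table. The part of tissue composition in the sucrose gene values was not tested.

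The genes whose pattern over the 6 libraries was most like that of *SPS4F* were sought among 18184 genes averaging 1 or more in log2 CPM. The highest Pearson correlation of log2 CPM was with AT3G28220 (r = 0.9987), which had 54.4, 56.2 and 55.5 CPM in mock and 113, 105 and 106 CPM in treated libraries. *SK13*, a shaggy-like kinase gene, had r = 0.9984 and a log2 fold change of 0.44. AT3G44450 had r = 0.9976 and a log2 fold change of 0.63. With 3 libraries in each of 2 groups, these correlations mostly describe the difference between the groups.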

How the data were processed

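RNA was taken from 3 mock and 3 treated samples of whole seedlings. Per the labels and the study's methods, the authors trimmed reads with Trimmomatic 0.36, used HISAT2 2.1.0 to align them to TAIR10, and counted them per gene with HTSeq-count. The labels name both a TruSeq and a directional NEBNext kit, and the sources used here do not give the strand setting of the counting. The deposited counts were used as they stand. The deposited CPM are the authors' counts over each library total (largest difference 3.6e-11). Every gene of the table reaches a CPM of 1 in 2 or more libraries. The deposited log2 fold changes, average log2 CPM, p-values and FDR hold the authors' own edgeR comparison and were not used.

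The counts were fitted in R 4.3.3 with edgeR 4.0.16 (TMM, filterByExpr, quasi-likelihood test), without a covariate and with Benjamini-Hochberg adjustment over 19615 genes. The limits of an adjusted p of 0.05 and a 1.5-fold change are those of the study. Alternatives used DESeq2 1.42.0, limma 3.58.1 (voom), edgeR's exact test, other normalizations and filters, and left-out libraries. Exact permutation tests and intervals cover the spread of these 6 libraries only. On simulated counts for this comparison, 49 of 50 genes changed 2-fold were called among 19614 genes, with 2 unchanged genes called. The simulation gave every gene the same biological coefficient of variation, 0.0792. It therefore does not cover genes of wider spread, such as *SUC2*, and this result does not cover changes near the 1.5-fold limit.

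Gene models, sequences and chromosome positions came from RefSeq's TAIR10.1, whose coordinates were not part of the deposited table. The members and lists were chosen with earlier results of these data known. The named genes were the 10 members, the called genes of each pathway list (at most 4, or the 1 with the smallest p where none was called), up to 3 called genes of each marker list, and the 3 genes most correlated with *SPS4F*.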

Additional observations from a re-analysis of the deposited data

How the results depend on the processing

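The call held for 156 of 160 values of the 10 genes under alternatives. The 4 exceptions were all *SUS3*, given above, and no called gene changed direction. The values of *SPS3F* (-0.05 to 0.12) and *SWEET12* (-0.05 to 0.07), which passed no test, crossed 0. The count of sucrose genes called higher, 2 in the report, was 1 at a fold of at least 2, 1 without mock 1 and treated 2 (chosen after seeing the data), 3 by the adjusted p alone, and 1 to 2 with single libraries left out. The count called lower stayed 0. Among the listed pathway genes, the count called higher was 0 with a CPM of at least 1 required in all 6 libraries, which removed *SUC7*, 2 with edgeR's exact test, which added *SWEET15* (log2 fold change 1.03, adjusted p = 0.0358), a gene that reached 1 CPM only in treated libraries, and 1 to 2 with single libraries left out, where *SPP1* joined without treated 3 (log2 fold change 0.62, edgeR adjusted p = 0.0393). The count called lower stayed 1. Over all genes, 257 to 418 were higher and 248 to 352 lower. Normalizations moved the median of all genes by less than 0.1 on the log2 scale.

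Libraries of like number are not stated to be paired across the groups. Their deviations correlated at -0.204, -0.302 and 0.173, within the -0.363 to 0.463 of unlike numbers, which cannot settle whether they were paired. A replicate block called 547 genes, 538 of them called without it, and changed no call of the 10 genes (*SPS4F* log2 fold change 1.02, *SUS3* 0.61 with an edgeR adjusted p of 0.0469). With the block, *SWEET2* no longer passed the adjusted p (0.0709 by edgeR). Depth limits *SUS3* and *SPS3F*, with 41 to 155 counts per library.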
